A study of Medicago truncatula with 24 samples.

Results

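Where the chromatin of *Medicago truncatula* embryos carried acetylated histone H3 (H3ac), H3K27me3 was sometimes called at the same place, and these places are described here. An H3ac peak was chosen when it overlapped by at least 1 bp an H3K27me3 peak of the same stage and temperature. This held for 868 of the 6620 H3ac peaks on chromosomes 1 to 8, in a series whose 12 peak lists hold 38053 peaks on all sequences. The choice rests on the called positions of both marks, so the number, the share, the bases in common and the length of the chosen peaks are descriptions, and a long peak meets the rule more easily than a short one. Below, the chosen peaks are called overlapping peaks and the remaining 5752 are called other H3ac peaks.

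Embryos of the genotype A17 were collected at 4 stages of seed development, and a share of the plants was moved to heat at flowering. The H3ac lists, which were all used, are S2 at 26°C (17 days after pollination), S1 at 26°C (14 days), S2 at 20°C (26 days) and S1 at 20°C (17 days), where S1 precedes and S2 follows the acquisition of desiccation tolerance, 20°C by day is the standard condition and 26°C by day the heat stress. H3K27me3 was measured in the same conditions and also at S3 (22 days at 26°C, 36 days at 20°C) and S4 (28 days at 26°C, 44 days at 20°C), which makes 8 lists. Each of the 12 IP libraries, made with an antibody, was set against 1 INPUT library of the same chromatin, and 1 library was used per condition, where the record of the series speaks of 2 H3ac replicates. No condition has a replicate here, so conditions are compared as values and ratios without a p-value. Each library was made from many pooled seeds, and a peak of both marks at one place cannot be told apart from marks on different alleles, cells or seeds.

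Acetylation of histone tails loosens the hold of DNA on the nucleosome and is found at active genes. H3K27me3 is laid down by Polycomb repressive complex 2 and keeps developmental genes silent, which in seeds includes genes of other life phases. A lysine of the tail cannot be acetylated and methylated at the same time, while other lysines of the same H3 can be, and the H3ac antibody reads several of them.

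The lists differ in size, and the libraries behind them differ in depth. The peak files hold no read counts, but a count of clean reads exists for each library. By it, the H3ac IP library of S1 at 20°C was the shallowest and that of S2 at 26°C the deepest, while the INPUT of S1 at 20°C was sequenced far more deeply than the other H3ac INPUTs. The H3K27me3 IP libraries were all deeper than those of H3ac. The part of depth in the results was not tested. H3ac peaks on chromosomes 1 to 8 numbered 530 in S2 and 786 in S1 at 26°C, and 928 in S2 and 4376 in S1 at 20°C, the last of which stands apart by its number and by its short peaks. The H3K27me3 lists of these conditions held 5234, 5611, 1793 and 4648 peaks, with the lowest number in S2 at 20°C. The INPUT signal itself was not analysed here.

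In S2 at 26°C, 111 H3ac peaks overlapped H3K27me3, which is 20.9% of the list (exact Clopper-Pearson 95% interval 17.6% to 24.7%). In S1 at 26°C there were 164, or 20.9% (18.1% to 23.9%). In S2 at 20°C there were 336, or 36.2% (33.1% to 39.4%), and in S1 at 20°C 257, or 5.87% (5.19% to 6.61%). The intervals cover counting error only. S2 at 20°C thus had the highest share and S1 at 20°C the lowest, and the 26°C lists lay between them with nearly equal shares.

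The difference between temperatures had opposite signs at the 2 stages. At S2 the share was lower at 26°C than at 20°C by 15.3 percentage points (log2 ratio −0.79), and at S1 it was higher at 26°C by 15.0 points (log2 ratio 1.83). Between stages, the share of S2 over that of S1 had a log2 ratio of 0.01 at 26°C and 2.62 at 20°C. In bases, both marks shared 0.847 Mb in S2 at 26°C, 0.747 Mb in S1 at 26°C, 1.61 Mb in S2 at 20°C and 0.717 Mb in S1 at 20°C, so that the log2 ratio of 26°C to 20°C was −0.93 at S2 and 0.06 at S1. S1 at 20°C, with the lowest share, thus had a shared length close to those of 26°C. With a fold enrichment of at least 3 in both marks, the share was 15.4% in S2 and 15.7% in S1 at 26°C, against 13.1% in S2 and 5.00% in S1 at 20°C. Under this rule it was higher at 26°C at both stages and the opposite signs were lost. The cut is uneven, as the median H3K27me3 fold enrichment was below 3 in S2 at 20°C only (2.56, against 3.90 in S2 at 26°C). Under 9 of 10 alternative rules S2 at 20°C stayed highest and S1 at 20°C lowest, which keeps the opposite signs.

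**Figure D1:**
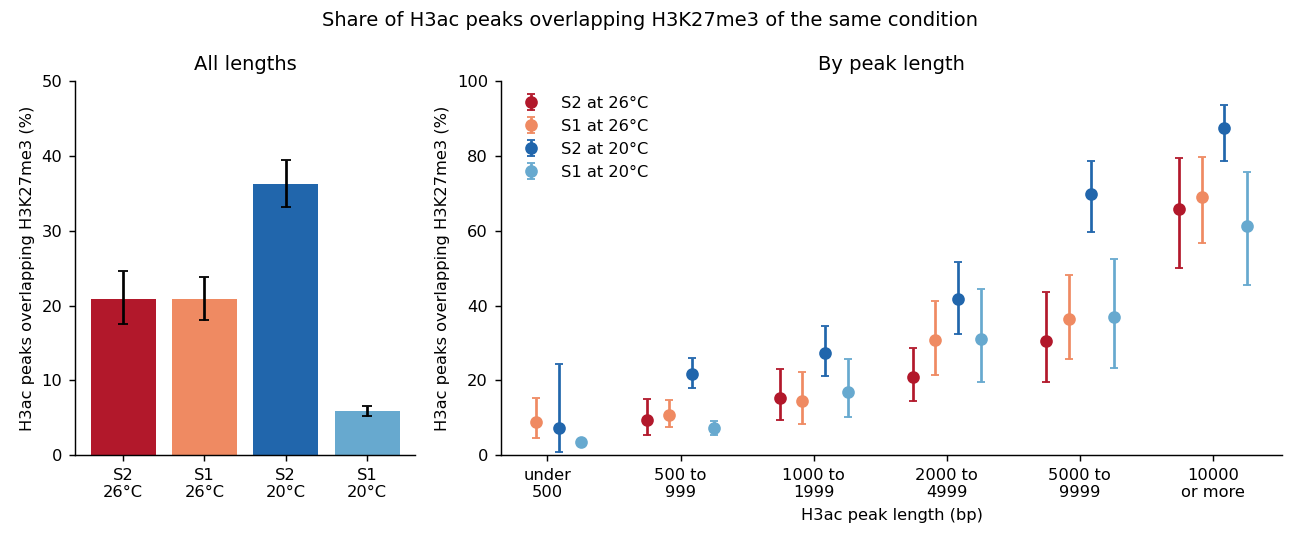
Left, share of H3ac peaks overlapping H3K27me3 of the same condition in percent, 1 bar per list. Right, the same share by length of the H3ac peak in bp, with 1 point per list and class. Error bars are exact 95% intervals for counting error. S2 at 20°C has the highest bar (36.2%), and in every list the share is highest among peaks of 10000 bp or more.

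Overlapping peaks were long. Their median length was 3971 bp in S2 at 26°C, 4388.5 bp in S1 at 26°C, 3182 bp in S2 at 20°C and 534 bp in S1 at 20°C, while that of the other H3ac peaks was 1393, 758.5, 854 and 384 bp in the same order of lists. The longest spanned 113615, 73348, 106199 and 100001 bp, whereas no other H3ac peak was longer than 20903 bp. Peaks of at least 10 kb numbered 29, 47, 77 and 27 among the overlapping peaks and 15, 21, 11 and 17 among the others. They made up 63.7% to 79.3% of the length of the overlapping peaks. Of the bases with both marks, they held 82.7% in S2 at 26°C, 74.2% in S1 at 26°C, 68.3% in S2 at 20°C and 75.5% in S1 at 20°C, although they were 26.1%, 28.7%, 22.9% and 10.5% of the overlapping peaks.

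The link between length and overlap, which the rule favours, ran through every length class. Of H3ac peaks of 10000 bp or more, 65.9%, 69.1%, 87.5% and 61.4% overlapped H3K27me3, against 9.52%, 10.8%, 21.8% and 7.17% of those of 500 to 999 bp. S1 at 20°C had 3277 peaks under 500 bp, of which 3.57% overlapped, and S2 at 26°C had 0 peaks that short. Between 1000 and 9999 bp S1 at 20°C did not stand below the 26°C lists (17.0% against 15.3% in S2 at 26°C and 14.4% in S1 at 26°C from 1000 to 1999 bp), while it had the lowest value of the lists among peaks of 500 to 999 bp and of 10000 bp or more. S2 at 20°C had the highest share in each of the 5 classes from 500 bp upwards.

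H3K27me3 covered most of the length of the median overlapping peak in each list. The median overlapping peak had 64.9% of its length under H3K27me3 in S2 at 26°C, 63.3% in S1 at 26°C, 83.5% in S2 at 20°C and 85.9% in S1 at 20°C. H3K27me3 covered 28, 45, 119 and 104 of the overlapping peaks completely, and under 10% of the length of 14, 23, 21 and 16. The summit, the base of strongest H3ac signal, lay inside an H3K27me3 peak in 66, 98, 254 and 183 of them. At the edge of the rule, the smallest overlaps were 67, 17, 50 and 2 bp, and 3, 6, 3 and 12 overlapping peaks had under 100 bp in common with H3K27me3. Just outside it, the nearest other H3ac peak ended at the base next to an H3K27me3 peak in S2 at 26°C (a gap of 0 bp), and lay 83 bp away in S1 at 26°C, 4 bp in S2 at 20°C and 12 bp in S1 at 20°C.

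The H3K27me3 side of the overlap differed between lists. Overlapping peaks touched 131 of the 5234 H3K27me3 peaks of S2 at 26°C (2.50%), 174 of 5611 in S1 at 26°C (3.10%), 306 of 1793 in S2 at 20°C (17.1%) and 259 of 4648 in S1 at 20°C (5.57%). H3K27me3 peaks that were touched had a median length of 2267, 2159, 2246.5 and 1429 bp, against 447, 475, 527 and 415 bp for those that were not. Long H3K27me3 domains are also more easily touched. Strength of the 2 marks at an overlap showed no common order, as Pearson's r between the logarithms of their fold enrichments was 0.14, −0.03, −0.30 and 0.01 over 111, 164, 336 and 257 peaks (a description across peaks, many of which share an H3K27me3 peak).

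H3ac fold enrichment over INPUT, as the peak caller gave it, was similar in both kinds of H3ac peaks. Its median was 3.15, 3.07, 3.52 and 3.14 for overlapping peaks, against 2.85, 3.11, 3.17 and 3.14 for the others. More of the overlapping peaks had a q-value of at most 0.05, with 70.3%, 64.0%, 82.4% and 56.8% against 40.1%, 53.5%, 57.8% and 40.1%. A peculiar class combined a fold enrichment under 2 with a −log10 p of at least 10, which takes many fragments in IP and INPUT alike. It held 9, 9, 19 and 3 overlapping peaks and 0, 6, 0 and 1 other H3ac peaks. Their part in the overlap was not tested.

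The annotation, which the rule did not use, was compared between overlapping and other H3ac peaks. In S2 at 26°C 27.9% of overlapping peaks against 12.6% of other H3ac peaks touched a gene, in S1 at 26°C 28.7% against 14.8%, in S2 at 20°C 15.2% against 10.5% and in S1 at 20°C 38.5% against 42.9%. The mean difference was 7.36 percentage points with a positive sign in 3 of 4 lists (exact sign-flip permutation test over the 4 lists, two-sided, p = 0.25, Benjamini-Hochberg adjusted over 4 measures 0.333). With 4 lists this test cannot go below 0.125. The lists share many places, so they are not independent either.

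Of the 4 measures of place, genes for ribosomal RNA gave the largest ratio. They were touched by 7.21% of overlapping peaks against 0.477% of other H3ac peaks in S2 at 26°C, by 11.0% against 1.29% in S1 at 26°C, by 4.46% against 0.338% in S2 at 20°C and by 5.06% against 0.146% in S1 at 20°C. The mean difference was 6.36 points, higher in 4 of 4 lists (same exact test, p = 0.125, adjusted 0.333). Among peaks under 2 kb it was 4.74 points, in 4 of 4 lists, but this rests on 3, 6, 2 and 2 overlapping peaks against 1, 6, 2 and 3 others. Over all lengths 8, 18, 15 and 13 overlapping peaks touched an rRNA gene. A single rRNA domain of chromosome 6, described below, held 3, 10, 7 and 7 overlapping peaks in these lists, so that 1 locus recurs in each.

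Protein-coding genes gave no common direction. They were touched by 11.7%, 11.6%, 6.85% and 27.6% of overlapping peaks, against 7.64%, 9.49%, 6.25% and 39.5% of other H3ac peaks, with the lists in the same order. The mean difference was −1.27 points (same exact test, p = 1) and turned to 2.26 points without S1 at 20°C. Parts of the chromosomes poor in genes, taken as 1-Mb bins holding under 40 genes that code for protein (56 of 428 bins, 13.1%), held 73.0%, 69.5%, 72.0% and 47.1% of overlapping peaks and 73.7%, 58.8%, 69.3% and 20.9% of the others. The mean difference was 9.71 points (3 of 4 lists, same exact test, p = 0.25, adjusted 0.333), of which 4.22 points remained without S1 at 20°C and 0.564 among peaks under 2 kb. Both kinds of H3ac peaks were thus mostly in gene-poor parts, apart from the S1 list at 20°C.

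**Figure D2:**
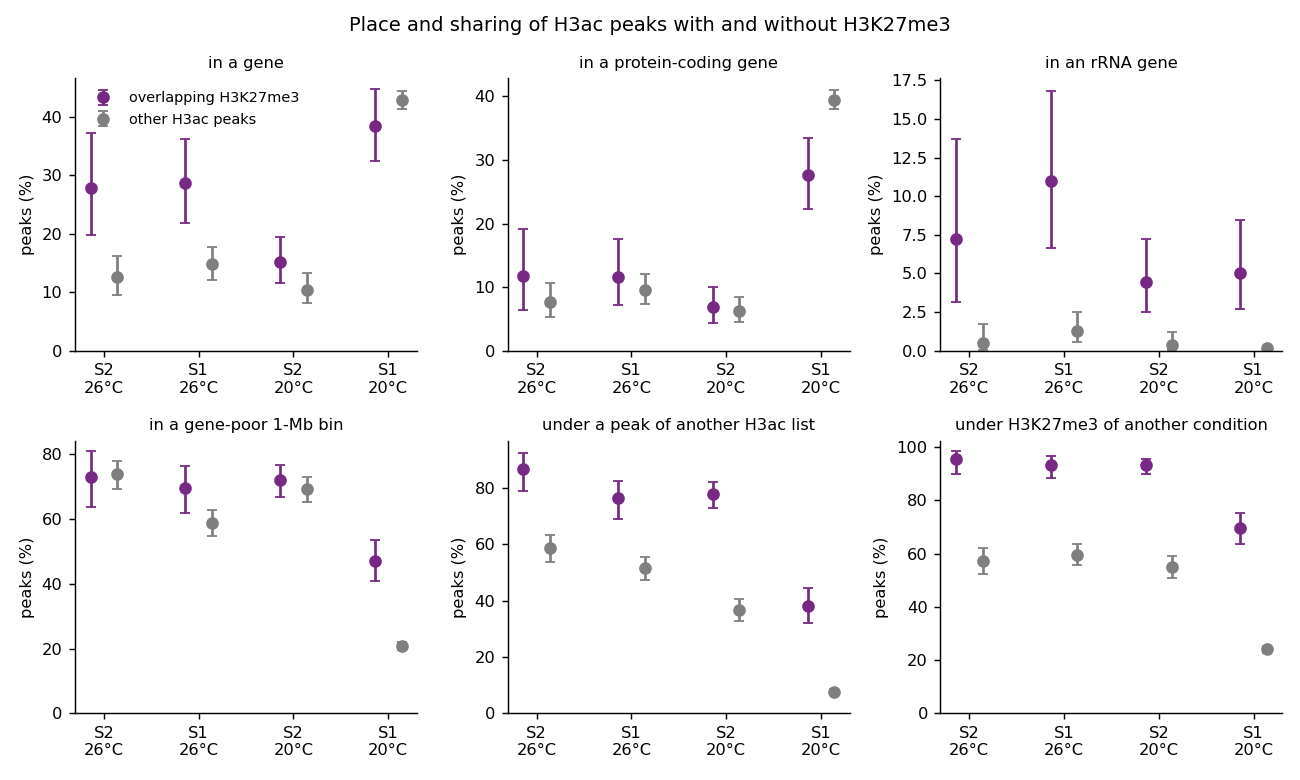
Share of overlapping peaks (purple) and of other H3ac peaks (grey) in percent in each list, in 6 panels for 4 measures of place and 2 of sharing, with exact 95% intervals for counting error. Purple points lie above grey ones in all 4 lists for rRNA genes and for both measures of sharing.

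A total of 737 of 39280 annotated genes (1.88%) lay under an overlapping peak in at least 1 list. They included 548 of 1407 rRNA genes (38.9%), 57 of 1607 pseudogenes (3.55%), 107 of 31728 protein-coding genes (0.337%), 10 of 971 snoRNA genes, 9 of 2561 lncRNA genes and 6 of 746 tRNA genes, and 0 of 210 snRNA genes. Of the rRNA genes under such a peak, 543 of 548 are 100 to 130 bp long, as are 1397 of all 1407 annotated ones. This is the size class of genes for 5S rRNA, a part of the large ribosomal subunit that RNA polymerase III makes.

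Nearly all of these rRNA genes lie on chromosome 6. There, 502 of 505 rRNA genes were under an overlapping peak in at least 1 list, and 271 were in all 4. The number was 500 in S2 at 26°C, 302 in S1 at 26°C, 436 in S2 at 20°C and 368 in S1 at 20°C. A gene under a long overlapping peak need not lie in H3K27me3 itself, and of these genes 209, 213, 435 and 121 were also in an H3K27me3 peak of the same condition. Most of the counted genes of S2 at 26°C and S1 at 20°C were thus outside H3K27me3. By contrast, only 5 of the 766 rRNA genes on chromosome 2 were under one, and 745 had neither mark in these 4 conditions. On chromosome 4 it was 34 of 81 and on chromosome 5 it was 7 of 54. The mapping kept reads with 1 place in the genome, and near-identical rRNA copies take few such reads, so the count of a single copy is uncertain.

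Most of the chromosome 6 genes sit in one domain of 141 kb (20569900 to 20711127 on the MtrunA17r5.0 assembly) with 460 rRNA genes and 35 pseudogenes. Overlapping peaks filled 99.1% of it in S2 at 26°C with 3 peaks, 59.1% in S1 at 26°C with 10, 86.0% in S2 at 20°C with 7 and 75.4% in S1 at 20°C with 7. The domain is a merged region whose limits are those of the S2 at 26°C peaks, which favours a high value in that list. Its highest H3ac fold enrichment was 7.29, 6.18, 6.88 and 6.17 in the same order, and that of H3K27me3 was 4.64, 4.04, 5.23 and 4.99. The highest H3ac value was thus similar in the 4 conditions. The lowest H3ac value of an overlapping peak there was 2.49, 1.67, 2.23 and 1.84. The bases with both marks were 58.8 kb, 55.4 kb, 121 kb and 29.6 kb, with the most in S2 at 20°C.

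H3K27me3 spread over the chromosome 6 rRNA genes in the later lists. From S1 to S4, 227, 211, 499 and 500 of the 505 genes were in an H3K27me3 peak at 26°C, and 122, 494, 495 and 475 at 20°C. By stage, coverage was near complete from S2 at 20°C (26 days) and from S3 at 26°C (22 days). At the equal age of 17 days it was 211 genes at 26°C (S2) and 122 at 20°C (S1), so the order depends on whether stage or age is matched. For H3ac, which was measured at 2 stages, the numbers were 500 in S2 and 346 in S1 at 26°C, and 436 in S2 and 418 in S1 at 20°C. Each number comes from 1 library.

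**Figure D3:**
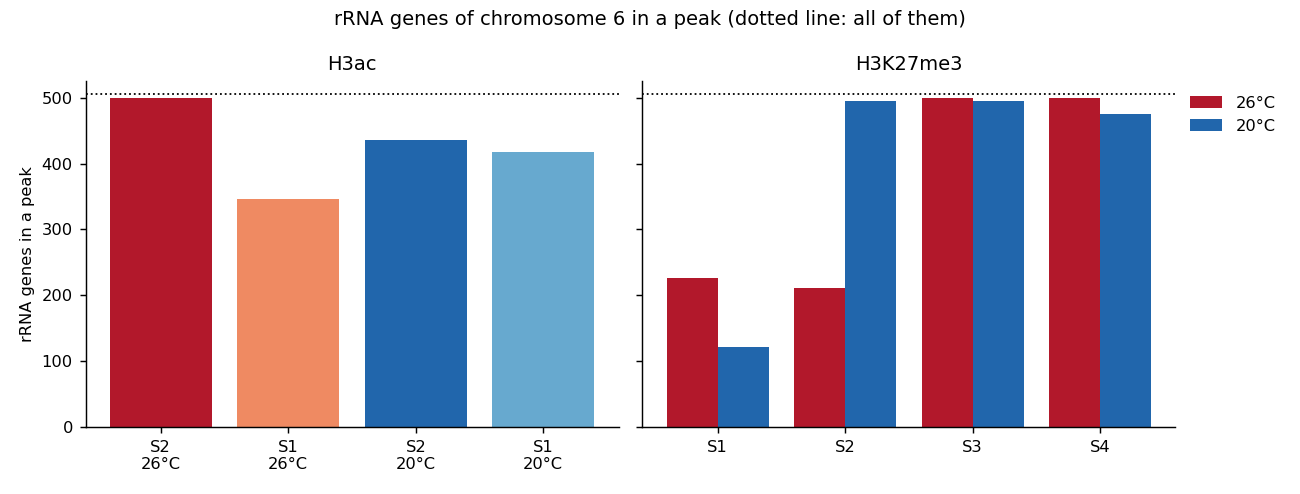
Number of rRNA genes of chromosome 6 in a peak of H3ac (left, 4 lists) and of H3K27me3 (right, stages S1 to S4 at 26°C and 20°C). The dotted line marks all 505 genes. The H3K27me3 bars of S1 and, at 26°C, of S2 stay at 227 genes or fewer, and those of the other 5 lists reach 475 or more.

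Protein-coding genes under overlapping peaks numbered 19 in S2 at 26°C, 16 in S1 at 26°C, 22 in S2 at 20°C and 71 in S1 at 20°C. Most were in a single list, with 16 in at least 2 lists, 4 in at least 3 and 1 in all 4. In S1 at 20°C 65 of the 74 pairs of a gene and a peak had a peak under 1000 bp, against 4 of 20 in S2 at 26°C. The gene table used here gives symbols without product names, so the roles of these genes are not stated.

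The gene in all 4 lists is LOC120579525 on chromosome 3 (16827178 to 16908618), whose body held peaks of 25691 bp or more in each condition. The strongest H3ac fold enrichment of its long peak was 5.21 in S2 at 26°C, 1.41 in S1 at 26°C, 1.49 in S2 at 20°C and 2.47 in S1 at 20°C, so that S2 at 26°C stood above the rest. H3K27me3 at the same peaks was 7.22, 4.36, 18.2 and 5.79, with the highest value in S2 at 20°C. The marks thus had their maxima in different conditions of the same stage. Its −log10 p of H3ac reached 1943 in S2 at 26°C, against 10.7 in S1 at 26°C.

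Genes in 3 lists were LOC25480017, LOC112418360 and LOC120579297. LOC25480017, a gene of chromosome 5 (23911733 to 23912206), lies inside a domain of 13268 to 14285 bp with both marks, which had an H3ac fold enrichment of 9.03 in S1 at 26°C, 6.85 in S2 at 20°C and 8.48 in S1 at 20°C and an H3K27me3 fold enrichment of 5.45, 3.86 and 4.50. For LOC112418360 on chromosome 6 (26923068 to 26942673) the H3ac values were 5.68 in S2 at 26°C, 6.10 in S1 at 26°C and 8.81 in S2 at 20°C, and the shared length was 728 bp in S2 at 26°C against 6926 bp in S2 at 20°C. LOC120579297 on chromosome 3 (25306702 to 25310714) had weaker peaks, with 2.63 in S1 at 26°C, 3.17 in S2 at 20°C and 2.68 in S1 at 20°C. Of the 3, only the chromosome 5 gene kept H3ac values above 6 in each of its lists.

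The other 12 genes in 2 lists had peaks with H3ac fold enrichments between 2.26 and 9.01. At the upper end was LOC112417792 on chromosome 5 (23469126 to 23564952), with 7.30 in S2 at 20°C and 9.01 in S1 at 20°C on peaks of 610 and 796 bp fully under H3K27me3. LOC120580582 on chromosome 5 (23925289 to 23926907) had 6.28 and 7.38 in these lists. LOC120578299 on chromosome 2 (14620696 to 14626456) had 6.58 in S1 at 26°C and 5.29 in S2 at 20°C. Chromosome 3 held 3 of them side by side, LOC120579653, LOC120579654 and LOC120579658, where LOC120579658 (12205548 to 12206300) had 7.09 in S2 at 26°C and 3.77 in S1 at 20°C. The remaining ones were LOC112418186 on chromosome 4, LOC120575977, LOC25481612, LOC120576044 and LOC120576085 on chromosome 6, and LOC25493504 on chromosome 8. LOC120575977 and LOC25481612 share the same peaks, with 2.60 in S1 at 26°C and 5.64 in S2 at 20°C.

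The first 5 protein-coding genes by H3ac fold enrichment of the overlapping peak, ties at the fifth place included, differed between lists. In S2 at 26°C LOC120580077 (12707243 to 12709478) and LOC11441954 (12728713 to 12730186) on chromosome 4 shared a peak of 23770 bp with an H3ac fold enrichment of 19.3, followed by LOC120580075 with 7.14 and, with 7.09 each, by 6 genes under a single peak of 15318 bp on chromosome 3 (12203259 to 12218576), LOC120579658, LOC120579656, LOC120579495, LOC120579657, LOC120579655 and LOC11413403. In S1 at 26°C LOC25480017 led with 9.03, followed by LOC120578299 with 6.58, LOC120576044 with 6.14, LOC112418360 with 6.10 and LOC120579984 with 4.11. In S2 at 20°C LOC112418360 led with 8.81, followed by LOC112417792 with 7.30, LOC112422660 with 7.05, LOC25480017 with 6.85 and LOC120576979 with 6.70. In S1 at 20°C LOC11445936 led with 9.12, followed by LOC112417792 with 9.01, LOC25480017 with 8.48, LOC120580582 with 7.38 and LOC11439130 with 6.92. Only LOC25480017 was among the first 5 in 3 lists.

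Sharing between conditions was next compared, as a peak was chosen in its own condition only. Of the overlapping peaks of S2 at 26°C, 86.5% also overlapped an H3ac peak of another condition, against 58.5% of the other H3ac peaks of that list. The values were 76.2% against 51.4% in S1 at 26°C, 77.7% against 36.7% in S2 at 20°C and 38.1% against 7.62% in S1 at 20°C. The mean difference was 31.1 points, higher in 4 of 4 lists (two-sided exact permutation test by sign flips, p = 0.125, the smallest it can give). Among peaks under 2 kb the difference was 18.3 points, also in 4 of 4 lists and thus smaller than over all lengths.

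H3K27me3 of other conditions was on the overlapping peaks as well. In the 7 H3K27me3 lists that had no role in the choice, 95.5% of the overlapping peaks of S2 at 26°C had H3K27me3 at least once, against 57.3% of the other H3ac peaks. The values were 93.3% against 59.6% in S1 at 26°C, 93.2% against 55.1% in S2 at 20°C and 69.6% against 24.2% in S1 at 20°C. The mean difference was 38.9 points in 4 of 4 lists (same exact test, p = 0.125) and about as large, 38.5 points, among peaks under 2 kb.

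In the lists of later stages, where H3ac was not measured, the pattern went on. H3K27me3 of S4 at 26°C touched, by at least 1 bp, 85.6% (S2 at 26°C), 87.8% (S1 at 26°C), 83.6% (S2 at 20°C) and 54.1% (S1 at 20°C) of the overlapping peaks, against 34.4%, 40.5%, 34.3% and 11.0% of the other H3ac peaks. At S4 at 20°C these shares were 77.5%, 72.6%, 67.6% and 40.1%, against 30.3%, 26.2%, 16.2% and 4.71%. All 8 H3K27me3 lists had a peak on 34 of the 111 overlapping peaks of S2 at 26°C, 60 of 164 in S1 at 26°C, 68 of 336 in S2 at 20°C and 71 of 257 in S1 at 20°C.

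How many overlapping peaks recurred elsewhere depended on the list. Of the overlapping peaks of S2 at 26°C, 72.1% overlapped an overlapping peak of S2 at 20°C, and 31.0% of those of S2 at 20°C overlapped one of S2 at 26°C. At S1 it was 39.0% of those at 26°C and 22.2% of those at 20°C. Peaks in no other list of either mark numbered 4 in S2 and 8 in S1 at 26°C, and 17 in S2 and 74 in S1 at 20°C. The 74 of S1 at 20°C are 28.8% of its overlapping peaks, had a median length of 403.5 bp, and 48.6% of them touched a protein-coding gene. The whole list of S1 at 20°C is of this kind, since its other H3ac peaks had a median length of 384 bp and 39.5% of them touched a protein-coding gene.

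Merging the 868 peaks where they touched gave 557 regions with 2.83 Mb. Of these, 431 had an overlapping peak in 1 list, 70 in 2, 28 in 3 and 28 in all 4. When at least 0.5 of the H3ac peak had to be covered, an alternative chosen after seeing the data, 15 regions were in all 4. Their median length grew with the number of lists, with 787, 7108.5, 11195 and 19863.5 bp, and merging itself lengthens a region. The 28 regions cover 0.992 Mb and hold 192 of the 868 peaks. A gene-poor bin held 50.6% of the regions of 1 list and 92.9% (26 of 28) of those of all 4, and 2 of the 28 touched a protein-coding gene. Without S2 at 26°C, the smallest list, 46 regions were in all of the remaining lists.

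In each condition the 557 regions were in different states. Both marks overlapped in 100 regions in S2 at 26°C, 135 in S1 at 26°C, 296 in S2 at 20°C and 236 in S1 at 20°C. H3K27me3 without H3ac was found in 134, 81, 65 and 53 regions, and H3ac without H3K27me3 in 65, 101, 23 and 99. At S2, the 26°C list thus had more regions with H3K27me3 alone than with both marks, while at 20°C regions with both marks were the most frequent state. Neither mark was called in 248, 234, 173 and 160 regions. Since each list defines some of the regions, the longer lists of overlapping peaks have more of them by construction.

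**Figure D4:**
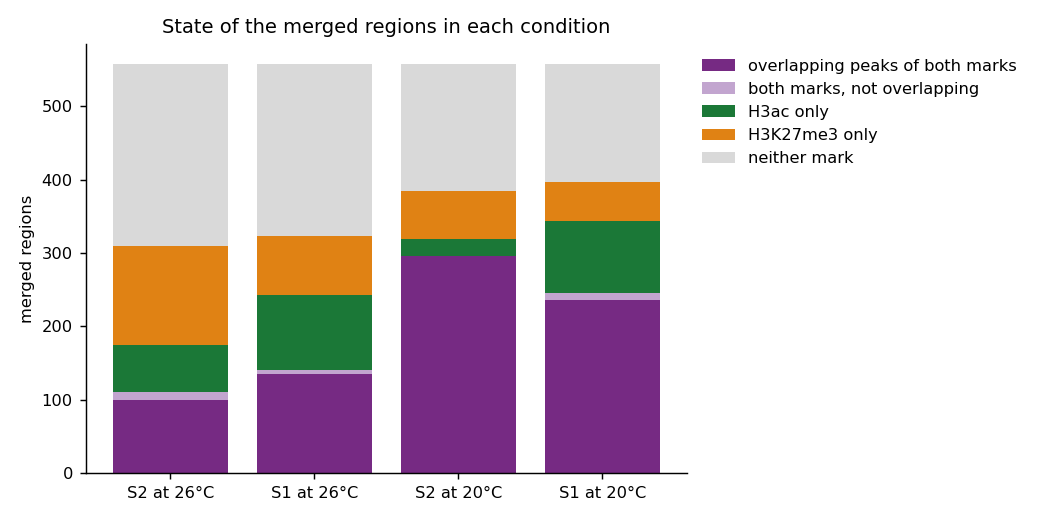
Number of the 557 merged regions in each of 5 states, stacked, for the 4 conditions. Purple marks overlapping peaks of both marks (100 regions in S2 at 26°C and 296 in S2 at 20°C), orange H3K27me3 only, green H3ac only and grey neither mark.

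The regions found in all 4 lists also had H3K27me3 at the stages the choice did not use. All 28 had an H3K27me3 peak in each of the 4 lists of S3 and S4, as had 25 of the 28 regions of 3 lists, 41 of 70 of 2 lists and 73 of 431 of 1 list. Such long regions are hit more easily, and the part of length in this was not tested.

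H3K27me3 fold enrichment in these 28 regions was higher at the end of development. Its median from S1 to S4 was 4.07, 4.55, 6.35 and 8.72 at 26°C, against 3.69, 5.57, 5.39 and 5.41 at 20°C. S4 exceeded S1 in 25 of 28 regions at 26°C (median log2 ratio 1.18) and in 22 of 28 at 20°C (median 0.83). For comparison, all H3K27me3 peaks were merged over the 8 lists. Of the merged H3K27me3 regions with a peak in every list, those with an overlapping peak in all 4 H3ac lists had a median log2 ratio of 1.01 at 26°C and 0.47 at 20°C (27 regions), those with one in 1 to 3 lists had −0.16 and −0.48 (49 regions), and those without any had −0.14 and −0.39 (30 regions). An overlapping peak in some of the lists thus went with ratios below 0, like those without any. Regions with overlapping peaks in all lists are longer, with a median of 25028 bp, against 15292 bp for those in 1 to 3 lists and 11833.5 bp for those in none.

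The class of low fold enrichment and high −log10 p moves with this pattern. It occurred in 15 of the 28 regions, and in 0 of 431, 2 of 70 and 3 of 28 regions of 1, 2 and 3 lists. In these 15 regions S4 exceeded S1 in 15 of 15 at both temperatures, with a median log2 ratio of 1.64 at 26°C and 1.38 at 20°C. In the 13 regions without such a peak S4 exceeded S1 in 10 at 26°C (median 0.42) and in 7 at 20°C (median 0.20). The part of these peaks in the difference was not tested.

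**Figure D5:**
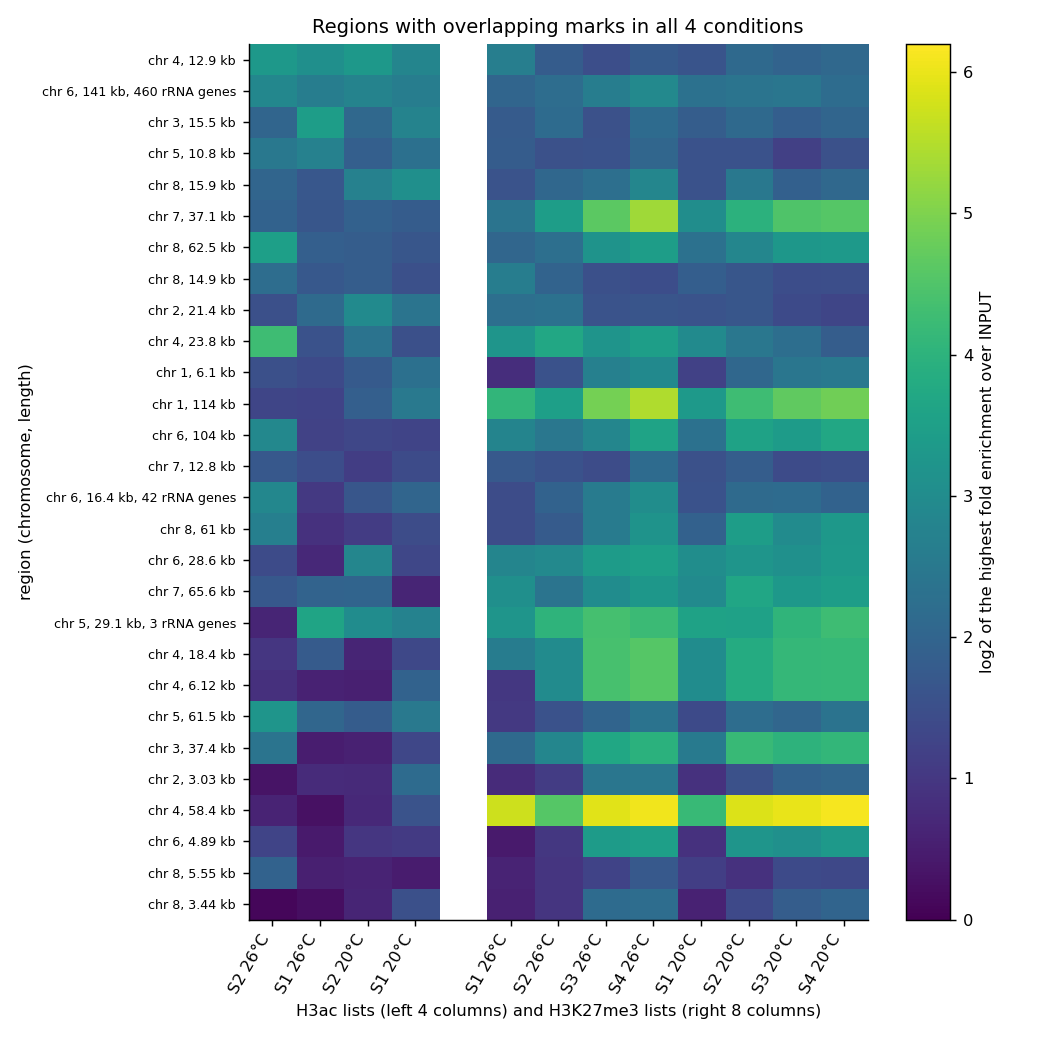
Highest fold enrichment over INPUT (log2) in the 28 regions with overlapping marks in all 4 conditions. Rows are regions, named by chromosome and length, and columns are the 4 H3ac lists and the 8 H3K27me3 lists. Rows are ordered by the H3ac value of their overlapping peaks, taking the highest per list and then the lowest over the 4 lists. The values shown are of any H3ac peak in the region, so they can exceed those used for the order. The region of chromosome 4 near the bottom has the strongest H3K27me3, with up to 69.2-fold at S4 at 20°C, and weak H3ac.

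Regions were ranked by the H3ac value of their overlapping peaks, as the lowest over lists of the highest per list. The first of the 28 is a region without an annotated gene on chromosome 4 (19942551 to 19955468). Its H3ac fold enrichment was 9.90 in S2 at 26°C, 8.54 in S1 at 26°C, 9.87 in S2 at 20°C and 7.02 in S1 at 20°C, and that of H3K27me3 lay between 2.80 and 6.26 over the 8 lists. The rRNA domain of chromosome 6 came next. The third lies inside the pseudogene LOC25490716 on chromosome 3 (25289075 to 25304610), with H3ac at 4.03, 11.0, 4.25 and 6.83 and H3K27me3 between 2.92 and 4.48. H3ac thus varied more between conditions in the pseudogene than in the first region.

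The next regions have no annotated gene. On chromosome 5 (22524398 to 22535157) H3ac was 5.60, 6.58, 3.69 and 4.85 and H3K27me3 stayed between 2.25 and 4.12. On chromosome 8 (22578674 to 22594571) H3ac was 4.10, 3.23, 6.61 and 8.50, higher in both 20°C lists than in both 26°C lists, and H3K27me3 was 7.22 at S4 at 26°C and 4.26 at S4 at 20°C. On chromosome 7 (18471580 to 18508654) H3ac was even, with 3.85, 3.15, 3.83 and 3.52. There H3K27me3 from S1 to S4 was 5.24, 10.9, 25.1 and 39.99 at 26°C, against 8.21, 15.7, 22.5 and 23.7 at 20°C, the steepest of the 6 regions named here.

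At the other end, a region on chromosome 4 (19615792 to 19674149) combined the strongest H3K27me3 of the 28 with little H3ac, and was picked after its values were seen. Its H3K27me3 fold enrichment from S1 to S4 was 53.1, 23.8, 60.7 and 67.4 at 26°C, against 18.2, 58.2, 63.5 and 69.2 at 20°C, and its H3ac was 1.54 in S2 at 26°C, 1.21 in S1 at 26°C, 1.63 in S2 at 20°C and 3.00 in S1 at 20°C.

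The single strongest overlapping peak of all lists lies on chromosome 7 (45392860 to 45393343), outside any annotated gene. It is 484 bp long, had an H3ac fold enrichment of 29.3 in S1 at 26°C, and was fully under H3K27me3. At the same place S1 at 20°C had a peak of 410 bp with 11.3, the strongest overlapping peak of that list. The strongest of its other H3ac peaks had 17.2. Neither S2 list had an H3ac peak there. H3K27me3 was called there in all 8 lists. It is thus a short site of H3ac at S1 at both temperatures inside lasting H3K27me3.

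Among the next strongest peaks were long domains. In S2 at 26°C a peak on chromosome 8 (22134670 to 22197171) spanned 62502 bp with 11.4-fold H3ac and a −log10 p of 2133, and one on chromosome 4 had the 19.3-fold given above. In S1 at 26°C a peak of 27503 bp on chromosome 5 (23799995 to 23827497) with 3 rRNA genes had 12.4-fold H3ac and 9.36-fold H3K27me3. In S2 at 20°C the strongest was a peak of 711 bp at the pseudogene LOC120580656 on chromosome 5, with 12.97-fold H3ac and 1.66-fold H3K27me3, followed by gene-free peaks on chromosome 1 (23251402 to 23277776) with 11.3 and on chromosome 7 (17311514 to 17321179) with 10.1. In S1 at 20°C a peak of 970 bp on chromosome 5 (23920677 to 23921646) had 10.7, and one of 598 bp at one end of LOC11445936 on chromosome 4 had 9.12 and no H3K27me3 outside its own condition.

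Overlapping peaks were not more clustered than others throughout. With a distance of at most 10 kb, 37.8%, 46.3%, 53.3% and 30.0% of them were in groups of 2 or more, against 66.6%, 47.9%, 50.2% and 26.2% of the other H3ac peaks. S2 at 26°C had fewer of its overlapping peaks in groups than of its other peaks, and in the other lists the shares were within a few points of each other at this distance. At 1 kb the shares were 16.2%, 27.4%, 28.3% and 14.4% against 34.1%, 20.4%, 23.0% and 5.80%, so that overlapping peaks were more often grouped in 3 of 4 lists. At 50 kb they were 46.8%, 55.5%, 65.8% and 33.1% against 76.4%, 59.5%, 65.9% and 66.3%, lower in 3 lists and nearly equal in S2 at 20°C. The result depends on the distance and on the number of peaks in a list. Groups of 3 or more numbered 50 over the lists, 26 of them in S2 at 20°C.

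The largest group lay on chromosome 7 (16932950 to 16967763) in S2 at 20°C, with 10 overlapping peaks in 34.8 kb. Their H3ac fold enrichment was 2.32 to 7.05, their length 637 to 8611 bp, and 9 of the 10 overlapped no H3ac peak of another condition. In S2 at 26°C the same stretch held 0 H3ac peaks and 5 H3K27me3 peaks, in S1 at 26°C it held 1 and 4, and in S1 at 20°C 1 and 8. H3K27me3 was thus called there in all 4 conditions, each from 1 library. This stretch and those that follow were chosen by their number of overlapping peaks in 1 list. Fewer H3ac peaks in the other lists are favoured by that choice.

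The next groups by number and then by span were also of S2 at 20°C. On chromosome 5 (23234994 to 23303765) 7 overlapping peaks had an H3ac fold enrichment of 1.51 to 3.55, and the H3ac peaks there numbered 2 in S2 at 26°C, 8 in S1 at 26°C and 5 in S1 at 20°C. On chromosome 7 (18533240 to 18594918) there were 6, with 1.15 to 3.97, against 1, 5 and 2 H3ac peaks in these lists. A group of S1 at 20°C on chromosome 4 (24064601 to 24076997) also had 6, in 12.4 kb, with 2.38 to 4.25. H3K27me3 in the chromosome 7 stretch of 6 was 8.52 to 12.7 in S2 at 20°C and 1.498 to 5.20 in S2 at 26°C.

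The chromosome with the highest share of overlapping peaks differed between lists. In S2 at 26°C chromosome 8 had the highest share, with 20 of 46 peaks (43.5%), in S1 at 26°C chromosome 6 with 42 of 133 (31.6%), in S2 at 20°C chromosome 5 with 20 of 51 (39.2%) and in S1 at 20°C chromosome 6 with 39 of 443 (8.80%). Over the whole lists the shares were 20.9%, 20.9%, 36.2% and 5.87%. In S2 at 20°C the chromosomes were close to each other, from 32.5% on chromosome 2 to 38.6% on chromosome 7 and 39.2% on chromosome 5. The 1-Mb bins with the most overlapping peaks were 20 to 21 Mb on chromosome 6 (50 peaks), 22 to 23 Mb on chromosome 8 (44) and 23 to 24 Mb on chromosome 5 and 18 to 19 Mb on chromosome 7 (34 each). These counts were not set against the other H3ac peaks of the bins. The middle 80% of the overlapping peaks was narrowest on chromosome 8, within 5.69 Mb, or 11.5% of the chromosome. As a share of the chromosome it was widest on chromosome 6, with 46.9% (20.1 Mb), and in Mb on chromosome 4, with 27.7 Mb (42.8%). For the other H3ac peaks the middle 80% took up 75.6% of chromosome 8 and 65.3% of chromosome 6. These spans pool the 4 lists. S1 at 20°C gave 4119 of the 5752 other H3ac peaks but 257 of the 868 overlapping ones. Within lists, ordered as above, gene-poor bins held 73.0%, 69.5%, 72.0% and 47.1% of overlapping peaks and 73.7%, 58.8%, 69.3% and 20.9% of the others. The difference in gene-poor bins was largest in S1 at 20°C, and the spans were not compared within lists.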

How the data were processed

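Reads were trimmed by the authors (trim_galore), aligned to MtrunA17r5.0 with STAR so that uniquely placed ones were kept, and freed of duplicates marked by Picard. The authors called peaks with macs2 in paired-end mode on each IP library against its INPUT, at a p-value threshold of 0.01 (tool versions are not given in the sources used here). Their script gives the broad option for both marks, while the deposited H3ac lists are in the narrow format. Each deposited peak has a ratio of IP to INPUT (fold enrichment) and −log10 values of p and q, which in broad lists are averages over the peak. The deposited score column was not used.

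Overlaps, merging and counts were computed in Python 3.11.15 (pandas 2.3.3, NumPy 2.4.6, SciPy 1.17.1; figures with matplotlib 3.10.9), tested on simulated data, and equalled bedtools 2.31.1 in 8 of 8 counts. Gene positions and symbols are those of RefSeq for MtrunA17r5.0, a table without strand or product names, so lists by gene function and sequences were not analysed here. The peak lists on chromosomes 1 to 8 were used. Overlaps needed at least 1 bp. Regions named were the first 6 of those in all 4 lists by lowest H3ac fold enrichment of their overlapping peaks, the 3 largest groups and the 3 strongest overlapping peaks per list. Genes were protein-coding ones in at least 2 lists or among the first 5 of a list. Members and lists were chosen with earlier results of these data known.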

Additional observations from a re-analysis of the deposited data

Results flagged for a closer look

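The share of H3ac peaks overlapping H3K27me3 was 15.0 percentage points higher at 26°C than at 20°C at S1 and differed by −15.3 points at S2, so the 2 stages differed in opposite directions. With a fold enrichment of at least 3 in both marks this was lost, since the share at S2 was then 15.4% at 26°C against 13.1% at 20°C and that at S1 15.7% against 5.00%. That cut lies above the median H3K27me3 fold enrichment of S2 at 20°C (2.56) and below that of S2 at 26°C (3.90). The opposite signs were kept under 9 of 10 alternative rules. With 1 library per condition this difference was not tested.

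Outside chromosomes 1 to 8, on sequences the comparisons above do not use, 92 of 227 H3ac peaks on unplaced contigs overlapped H3K27me3 of the same condition. They were 17 of 33 in S2 at 26°C, 14 of 41 in S1 at 26°C, 34 of 61 in S2 at 20°C and 27 of 92 in S1 at 20°C. On the mitochondrial and plastid sequences it was 24 of 28, of which 19 of 20 came from S1 at 20°C and 4 of 7 from S2 at 26°C. Organelle DNA is not packed with histones, and the source of these peaks was not tested.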

How the results depend on the processing

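No paired analysis was possible because each condition has 1 library. Shares moved beyond their intervals under stricter rules, given for S2 at 26°C, S1 at 26°C, S2 at 20°C and S1 at 20°C. With at least 0.5 of the H3ac peak covered they were 11.5%, 11.6%, 25.4% and 4.11%, with the summit inside H3K27me3 12.5%, 12.5%, 27.4% and 4.18%, and with a fold enrichment of at least 3 they were 15.4%, 15.7%, 13.1% and 5.00%. A q-value of at most 0.05 gave 28.5%, 42.8% and 7.96% for S2 at 26°C, S2 at 20°C and S1 at 20°C, the same number of H3K27me3 peaks 8.30%, 7.63% and 3.06% for S2 and S1 at 26°C and S1 at 20°C, the same number of H3ac peaks 47.9% and 13.2% for S2 and S1 at 20°C, a −log10 p of at least 5 15.8% for S1 at 26°C, and for S1 at 20°C an overlap of 200 bp gave 5.16% and all sequences 6.75%. S2 at 20°C was highest under 9 of 10 of these alternatives and S1 at 20°C lowest under 10 of 10.

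The difference for protein-coding genes turned to 1.11 points with 0.5 of the peak covered and to 3.08 among peaks under 2 kb (chosen after seeing the data), and ranged from −3.05 to 2.26 when a list was left out. The other differences kept their sign, and leaving out a list gave 4.72 to 11.3 points for genes, 5.26 to 7.11 for rRNA genes, 4.22 to 13.2 for gene-poor bins, 27.8 to 33.2 for sharing and 36.6 to 40.6 for H3K27me3 elsewhere. The log2 ratio of median H3ac fold enrichment turned, with a −log10 p minimum of 5, to −0.17 for S2 at 26°C and −0.024 for S2 at 20°C. Groups at most 1 kb apart held 16.2%, 27.4%, 28.3% and 14.4% of overlapping peaks, and at most 50 kb apart 55.5% in S1 at 26°C and 65.8% in S2 at 20°C. Regions in all lists ranged from 29 to 46 and all regions from 388 to 553 when a list was left out. After seeing the data, 0.5 of the peak covered gave 15 regions in all lists, and a q-value of at most 0.05 gave 357 regions in all. Differences in depth and the thresholds of the peak caller limit all of these numbers, and the cause of the changes was not tested.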
